A study of Mus musculus with 27 samples.

Results

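Cytochrome P450 enzymes are haem proteins that insert 1 atom of oxygen into fatty acids, steroids, vitamins, retinoids, drugs and toxins. Most of them sit in the endoplasmic reticulum and take electrons from cytochrome P450 reductase, and the hepatocyte is the cell best known for them. Nuclear receptors such as PXR, CAR and PPARα, and the aryl hydrocarbon receptor, are known to control many of the liver genes. Described here are the mouse genes of this family outside sterol and bile acid synthesis. They were taken as every protein-coding gene of the deposited count table whose symbol begins with Cyp and a digit, without Cyp51, Cyp7a1, Cyp8b1, Cyp27a1 and Cyp7b1. The rule gave 95 genes of 55487 gene identifiers, of which 21936 are protein coding, and each of the 95 had at least 1 count in some library.

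Primary mouse hepatocytes, primary microglia and bone marrow-derived macrophages (BMDM) were treated for 24 h in serum-free medium with ethanol vehicle, with 10 µM 24(S)-saringosterol or with 1 µM GW. Saringosterol is a phytosterol of brown seaweed. GW, written GW3965, GW3964 and GW3596 in different places of the labels, is taken here as 1 compound and called GW; GW3965 is a man-made drug-like compound known to activate the liver X receptors (LXR). Each of the 9 groups had 3 libraries of polyadenylated RNA, with 30295862 to 41040268 counted reads per library. Genotype, strain, sex, age and number of donor animals were not given in the sources used here. Microglia had been shaken off mixed glia grown in serum, BMDM had been differentiated with M-CSF, which the treatment medium of both these cell types also held, and hepatocytes had been plated on collagen. Hepatocytes were treated in Williams' E medium and the other cells in DMEM/F12, so between them cell type and medium cannot be told apart. Nothing in the labels says that replicates came from separate animals, so p-values measure only the spread between these libraries. In such bulk samples, fewer cells of a type and less RNA per cell cannot be told apart either.

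The labelled cell types were checked against marker lists. CPM is the count per library size. Every CPM sum over a marker or target list uses the plain library total as that size. CPM levels of single genes use sizes scaled by the TMM method. The 12 hepatocyte markers, led by albumin, summed to 14934 to 14955 CPM in vehicle hepatocytes. In vehicle microglia they summed to 0.291 to 0.439 CPM, and 6 of the 12 had no count. The 12 macrophage markers summed to 943 to 1018 CPM in vehicle hepatocytes, against 39804 to 41829 CPM in vehicle microglia and 31605 to 33436 CPM in vehicle BMDM. The 8 microglial markers summed to 829 to 859 CPM in vehicle microglia and 233 to 248 CPM in vehicle BMDM; Siglech had no count in vehicle microglia. As a check of the compounds, 8 known LXR target genes summed to 1232 CPM in vehicle hepatocytes, 1193 with saringosterol and 4299 with GW. In microglia the same sums were 1265, 3331 and 4578 CPM and in BMDM 1228, 2838 and 4226 CPM. Of the targets tested, saringosterol raised 0 of 8 in hepatocytes and 6 of 6 in microglia and in BMDM, and GW raised 5 of 8, 6 of 6 and 6 of 6.

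The members lie mainly in clusters of duplicated genes: 18 on chromosome 19 (most of the Cyp2c genes), 18 on chromosome 4 (Cyp2j and Cyp4a), 15 on chromosome 7 (Cyp2a, Cyp2b, Cyp2f and others), 11 on chromosome 17, 10 on chromosome 5 (Cyp3a) and 10 on chromosome 15 (Cyp2d). For 60 of the 95, the longest coding transcript was at least 80% identical to that of another member in the GENCODE M21 annotation of GRCm38. At 95% identity, 23 members fell into 10 groups, among them Cyp4a12a with Cyp4a12b and Cyp2a4 with Cyp2a5, each pair at 98.2%. Reads that fit both copies of such a pair may be split or dropped by the counting, so the values of those 23 genes are uncertain as to the copy.

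Sequence is shown for 5 genes: Cyp2f2, Cyp2d9, Cyp2a12 and Cyp3a11 fell with saringosterol in hepatocytes, and Cyp2b10 rose with GW. Each line is the stretch before the start of the RefSeq transcript (GRCm38.p6), 5′ to 3′ on the strand of the gene, without bases that GENCODE M21 places in an exon. Capitals mark TATAAA (the letters of a TATA box), AGGTCA (a nuclear receptor half-site) and GCGTG (the core of the aryl hydrocarbon receptor element), searched on both strands; none of the matches overlap.
Cyp2f2, chr7:27119705-27119908, + strand: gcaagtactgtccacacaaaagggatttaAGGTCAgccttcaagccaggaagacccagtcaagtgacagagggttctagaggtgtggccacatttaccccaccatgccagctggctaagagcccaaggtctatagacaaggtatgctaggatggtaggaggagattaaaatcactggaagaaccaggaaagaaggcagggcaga
Cyp2d9, chr15:82452127-82452333, + strand: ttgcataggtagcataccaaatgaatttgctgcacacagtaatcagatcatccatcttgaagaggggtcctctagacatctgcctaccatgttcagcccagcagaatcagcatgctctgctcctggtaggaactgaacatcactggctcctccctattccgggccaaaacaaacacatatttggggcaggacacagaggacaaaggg
Cyp2a12, chr7:27028840-27029080, + strand: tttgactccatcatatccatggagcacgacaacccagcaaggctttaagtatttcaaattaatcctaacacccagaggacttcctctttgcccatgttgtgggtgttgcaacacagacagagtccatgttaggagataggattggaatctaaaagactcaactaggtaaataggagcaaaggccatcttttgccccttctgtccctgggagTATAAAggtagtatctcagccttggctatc
Cyp3a11, chr5:145879965-145880104, - strand: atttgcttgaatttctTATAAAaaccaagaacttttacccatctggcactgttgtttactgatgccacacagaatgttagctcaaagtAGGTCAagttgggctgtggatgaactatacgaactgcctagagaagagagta
Cyp2b10, chr7:25897408-25897619, + strand: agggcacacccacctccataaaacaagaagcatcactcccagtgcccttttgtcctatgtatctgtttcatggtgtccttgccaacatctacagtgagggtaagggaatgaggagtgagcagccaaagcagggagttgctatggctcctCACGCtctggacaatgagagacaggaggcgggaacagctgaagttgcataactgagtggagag
The TATAAA letters lie 39 to 34 bases before the start in Cyp2a12 and 234 to 229 bases before it in Cyp3a11, far from where a TATA box is known to lie. The AGGTCA letters stand in the stretches of Cyp2f2 and Cyp3a11, the GCGTG letters (on the other strand) in that of Cyp2b10, and the Cyp2d9 stretch holds none of the 3 motifs. The Cyp2d9 stretch lies inside the span of the gene as counted (82433437 to 82456845), not before its first base. It therefore says nothing of the bases before that span. Over the 250 bases before the start, 27 of 74 members with an entry held TATAAA (36.5%, against 13% of 27025 windows over all genes). AGGTCA stood in 17 of the 74 (23% against 13.8%) and GCGTG in 15 (20.3% against 28.2%). These matches describe letters only.

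In vehicle hepatocytes 55 of the 95 genes reached 1 TPM (the deposited transcript abundance per length), 33 reached 10 TPM and 10 reached 100 TPM. Together they made up 3002 ± 93.6 TPM (SD, n = 3), and the 12 highest held 72.8% of that sum. Cyp2d10, of the drug-metabolising Cyp2d cluster, was highest at 371, 341 and 375 TPM. Cyp3a11, the main hepatic drug oxidase under PXR, followed at 295, 336 and 329 TPM and Cyp2f2, which activates naphthalene, at 311, 304 and 322 TPM. The ranges of Cyp3a11 and Cyp2f2 overlapped, while Cyp2d10 lay above both in every library. Next came Cyp2e1 (190 ± 20.7 TPM), the ethanol and acetaminophen oxidase, Cyp4v3 (173 ± 9.29 TPM), a fatty acid ω-hydroxylase, Cyp2d26 (160.5 ± 6.96 TPM) and Cyp4a12a (150 ± 6.61 TPM), another fatty acid ω-hydroxylase, each overlapping its neighbour. Cyp2c29 (131 ± 11.3 TPM) stood apart from Cyp4a12a above and Cyp2j6 (108 ± 4.81 TPM) below, both Cyp2c29 and Cyp2j6 belonging to families that make epoxides of arachidonic acid. Cyp3a13 (101 ± 12.4 TPM), Cyp2c67 (88.3 ± 6.22 TPM) and Cyp2d9 (88.1 ± 2.39 TPM) completed the 12, each with a range that overlapped the one above it.

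By family, the 8 Cyp2d genes summed to 669 ± 28.8 TPM in vehicle hepatocytes, the 9 Cyp3a genes to 488 ± 40.5 TPM, the 15 Cyp2c genes to 392 ± 30.4 TPM, the 10 Cyp4f and Cyp4v genes to 311 ± 7.79 TPM and the 10 Cyp4a and Cyp4b genes to 190 ± 7.65 TPM. The 6 genes of steroid hormone synthesis summed to 24.1 ± 2.97 TPM, and this was nearly all Cyp21a1 (24.0 ± 2.95 TPM), a steroid hydroxylase best known from the adrenal. Of the vitamin D and retinoid hydroxylases, Cyp2r1, a vitamin D hydroxylase of liver, was at 8.95 ± 0.675 TPM. Cyp24a1, which breaks down active vitamin D, had 0, 1 and 0 counts in the vehicle hepatocyte libraries. Cyp26a1 and Cyp26b1, which clear retinoic acid, had 0, 0 and 8 and 0, 3 and 0 counts, and Cyp27b1, which activates vitamin D, had 3, 6 and 2. None of these 4 exceeded 10 counts in any of the 27 libraries. On plain library totals, 3 counts correspond to 0.073 to 0.099 CPM. Differences between groups in these 4 genes were thus not detectable at this depth.

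**Figure D1:**
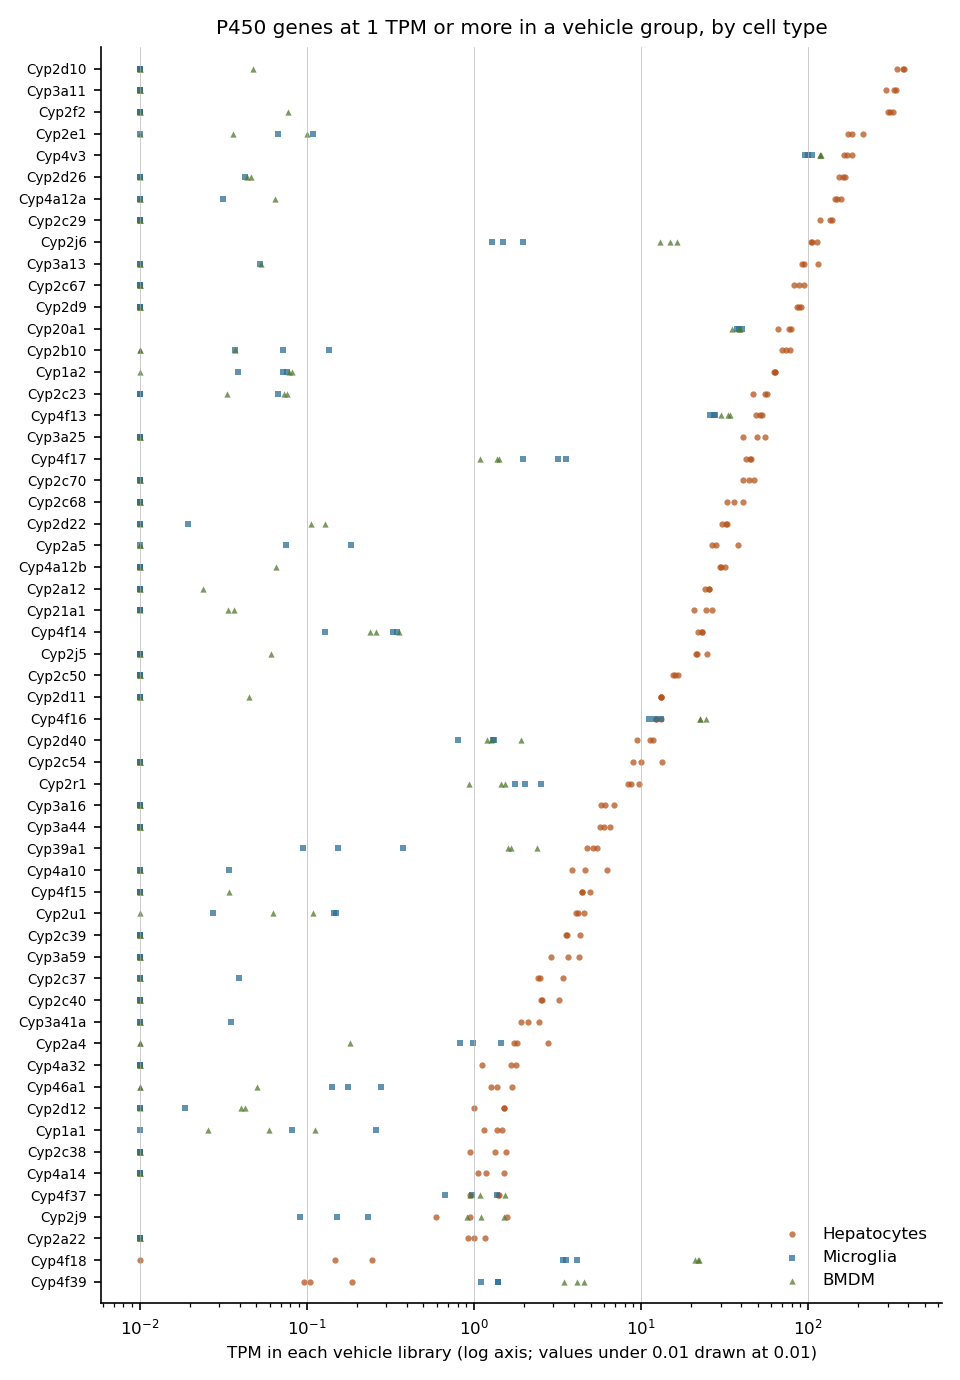
TPM of each P450 gene that reached 1 TPM in a vehicle group, 1 point per vehicle library (3 each of hepatocytes, microglia and BMDM) on a log axis, ordered by the hepatocyte mean. Most hepatocyte points lie between 1 and 375 TPM with macrophage points at or near the left edge, while Cyp4v3, Cyp20a1, Cyp4f13 and Cyp4f16 are above 10 TPM in all 3 cell types.

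The 2 macrophage-type cells held little of the family and the same few genes. In vehicle microglia 12 of the 95 genes reached 1 TPM and 47 had no count in any of the 3 libraries, and the members summed to 197 ± 1.89 TPM. Vehicle BMDM had 13 genes at 1 TPM and a sum of 264 ± 3.8 TPM. Cyp4v3 alone made up 51.1% of the sum in microglia, at 105, 96.7 and 101 TPM, and 45.0% in BMDM, at 118, 118 and 120 TPM. Below it, in both cell types, came Cyp20a1, an orphan P450 (38.9 ± 1.19 TPM in microglia, 37.7 ± 2.27 TPM in BMDM), Cyp4f13 (27.02 ± 1.101 and 32.6 ± 2.05 TPM), Cyp4f16 (12.2 ± 1.02 and 23.2 ± 1.16 TPM) and Cyp4f18, which degrades leukotriene B4 in myeloid cells (3.72 ± 0.395 and 21.8 ± 0.655 TPM). No neighbours among these 5 overlapped in either cell type, and the 10 Cyp4f and Cyp4v genes together gave 149 ± 2.05 TPM in microglia and 203 ± 4.23 TPM in BMDM. By contrast the 15 Cyp2c genes summed to 0.036 and 0.074 TPM in these cells and the 9 Cyp3a genes to 0.029 and 0.044 TPM.

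In a fit of all 27 libraries, in which 69 members passed the filter on low counts, 60 of 69 were higher and 6 lower in vehicle hepatocytes than in vehicle microglia at an adjusted p under 0.05 (edgeR quasi-likelihood F test, Benjamini-Hochberg over 18979 genes). The same test called 73.5% of all genes, 36.2% higher and 37.3% lower. Fitted on their own, hepatocytes had 62 members past the filter, microglia 17 and BMDM 15, so most of the 69 entered through hepatocytes and had to lean that way, and nothing is read from the count against that background. Against vehicle BMDM, 60 were higher and 5 lower, where 75.2% of all genes were called, 37.5% higher and 37.7% lower. Higher in microglia than in hepatocytes were Cyp4f18, Cyp4f39, Cyp2s1, Cyp1b1, Cyp2ab1 and Cyp4f16, and higher in BMDM than in hepatocytes the same genes except Cyp1b1. Cyp4f18 had 4, 0 and 6 counts in vehicle hepatocytes, 107, 87 and 81 in microglia and 569, 472 and 526 in BMDM. Its exons overlap those of Zfp961 on the other strand, which had 153 to 239 counts in the vehicle libraries, and whether strand was used in counting was not given in the sources used here. Cyp4f39, a hydroxylase of very long fatty acids related to the human gene of a skin barrier disease, had 4, 4 and 7 counts in hepatocytes, 44, 52 and 51 in microglia and 165, 119 and 166 in BMDM.

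Microglia and BMDM differed from each other in 14 of 69 members, 5 higher in microglia and 9 higher in BMDM, where 46.5% of all genes were called (24.6% higher and 22% lower in microglia). Many of the 69, having passed the filter through hepatocytes, had few or no counts in either cell type, so that these shares are not comparable. Cyp2j6 showed the widest well-counted gap, at 1.29 to 1.96 TPM in microglia and 13 to 16.4 TPM in BMDM, a log2 difference of -3.32 ± 0.12 (SE; edgeR adjusted p = 6.2e-22). Cyp4f18 differed by -2.65 ± 0.19 (adjusted p = 6.2e-14), Cyp4f16 by -1.03 ± 0.09 (adjusted p = 1.9e-11) and Cyp39a1 by -3.27 ± 0.40 (adjusted p = 2.1e-08). On the microglial side were Cyp4f17, at 1.05 ± 0.17 (adjusted p = 3.3e-06), and 4 genes of low count, Cyp1b1, Cyp2a4, Cyp2a5 and Cyp46a1. Cyp46a1, the cholesterol 24-hydroxylase known from neurons, had 8, 12 and 6 counts in vehicle microglia, 0, 2 and 0 in vehicle BMDM and 61, 60 and 73 in vehicle hepatocytes.

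In hepatocytes, saringosterol lowered 5 abundant P450 genes, and no member passed the test as higher. Levels fell by 11.6% for Cyp3a11 and by 16.8 to 17.2% for the other 4. The 5 that fell were Cyp2f2, Cyp4a12a, Cyp2d9, Cyp2a12 and Cyp3a11. That is 5 of the 62 members tested (8.06%), where the same test called 1.91% of 16098 genes, 1.02% as lower and 0.888% as higher. The other 33 members did not pass the filter on low counts. Over the 62, the median log2 change was -0.10, with 41 below and 21 above zero, beside a median of 0.00 over all genes tested. Of the 33 members at 10 TPM or more in vehicle, 25 were below zero, with a median of -0.12 and a range of -0.29 to 0.22. The summed TPM of all members was 2759 to 2816 in the saringosterol libraries, below the 2898 to 3079 of the vehicle libraries and the 2920 to 3101 of the GW libraries.

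Cyp2f2 (ENSMUSG00000052974, chromosome 7, 27119909 to 27133660) was at 228, 216 and 232 CPM with vehicle and 197, 181 and 185 CPM with saringosterol. Every saringosterol library lay below every vehicle library, while the GW libraries, at 211, 217 and 217 CPM, overlapped vehicle. The change was -0.27 ± 0.05 on the log2 scale (SE; edgeR adjusted p = 0.0011), so that the level fell by 16.8%, and the call held in all 13 alternatives tried, among them each library left out.

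Cyp4a12a (ENSMUSG00000066071, chromosome 4, 115299046 to 115332815) is a male-predominant fatty acid ω-hydroxylase of mouse liver. It went from 127, 134 and 129 CPM with vehicle to 109, 108 and 107 CPM with saringosterol, with no overlap, and was at 116, 135 and 127 CPM with GW. Its change of -0.27 ± 0.05 (adjusted p = 0.0043) was also called in all 13 alternatives. The near-copy Cyp4a12b, at 26.3 ± 1.06 CPM with vehicle, had a log2 difference of -0.155 ± 0.08 (adjusted p = 0.31). The Cyp4a12a promoter has no entry in the RefSeq table used here.

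Cyp2d9 (ENSMUSG00000068086, chromosome 15, 82433437 to 82456845), a male-predominant testosterone hydroxylase, was at 84.8, 80.1 and 85.6 CPM with vehicle and 75.3, 65.3 and 67.0 CPM with saringosterol. The change was -0.27 ± 0.06 (adjusted p = 0.0097), and the adjusted p was 0.13 without saringosterol replicate 2 and 0.095 without vehicle replicate 3. Of 5 listed genes known to be higher in male liver, Cyp4a12a and Cyp2d9 were the 2 called; of the other listed genes, Slco1a1 was at -0.12 ± 0.09 (adjusted p = 0.52) and Elovl3 at 0.15 ± 0.34 (adjusted p = 0.88).

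Cyp2a12 (ENSMUSG00000060407, chromosome 7, 27029081 to 27037375), a steroid hydroxylase, was at 31.8, 29.6 and 31.4 CPM with vehicle and 26, 25.8 and 25.2 CPM with saringosterol, a change of -0.27 ± 0.07 (adjusted p = 0.037). Cyp3a11 (ENSMUSG00000056035, chromosome 5, 145854426 to 145879964) was at 544, 602 and 597 CPM with vehicle and 520, 514 and 507 CPM with saringosterol, a change of -0.18 ± 0.05 (adjusted p = 0.042). The vehicle and saringosterol libraries did not overlap for either gene. These 2 calls are the least firm of the 5: each was lost when any 1 of 5 libraries was left out, namely any saringosterol library, vehicle replicate 3, and vehicle replicate 1 for Cyp2a12 or replicate 2 for Cyp3a11, with adjusted p up to 0.17 for Cyp2a12 and 0.24 for Cyp3a11. In all, 2 members were called without saringosterol replicate 2 or without vehicle replicate 3, and 3 without saringosterol replicate 3.

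**Figure D2:**
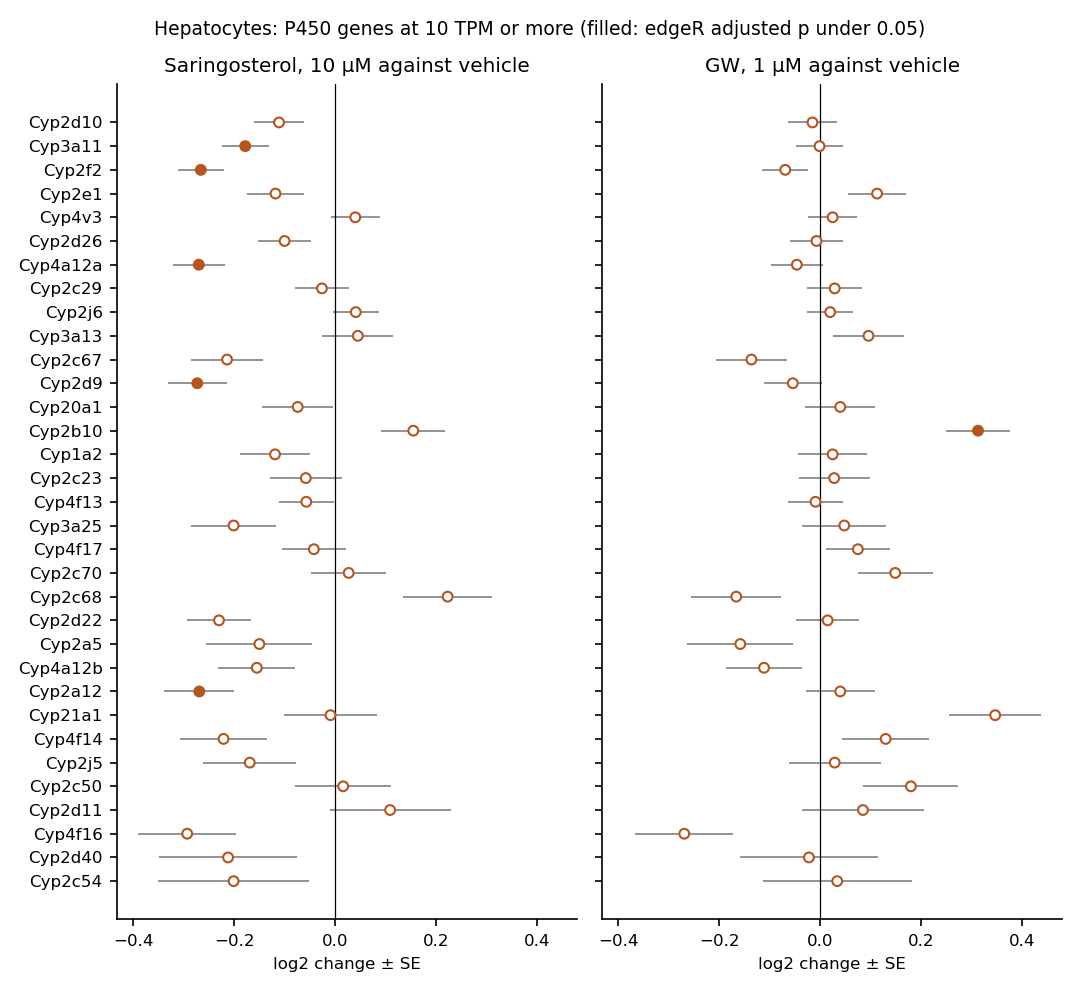
Log2 change against vehicle with its SE (edgeR, 3 libraries against 3) of the 33 P450 genes at 10 TPM or more in vehicle hepatocytes, ordered by that level, for saringosterol (left) and GW (right); filled points have an adjusted p under 0.05. Left of zero stand 25 of 33 points for saringosterol, 5 of them filled, and 13 of 33 for GW, where the 1 filled point is Cyp2b10.

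None of the inducible genes known as targets of xenobiotic receptors passed the test with saringosterol as higher. Cyp1a1 and Cyp1a2, the classic aryl hydrocarbon receptor targets, had log2 differences of -0.50 ± 0.31 (adjusted p = 0.44) and -0.12 ± 0.07 (adjusted p = 0.41). Cyp2b10, the classic CAR target, was at 59.8, 51.7 and 55.8 CPM with vehicle and 62.1, 64.9 and 59.3 CPM with saringosterol, an overlap by the highest vehicle library (0.16 ± 0.06, adjusted p = 0.21). The PPARα-inducible Cyp4a10 and Cyp4a14 were at -0.10 ± 0.18 and -0.15 ± 0.33 (adjusted p = 0.84 and 0.88). Cyp2e1 differed from vehicle by -0.12 ± 0.06 (adjusted p = 0.30) and Cyp2d10 by -0.11 ± 0.05 (adjusted p = 0.25). Among the genes of sterol and vitamin breakdown, Cyp39a1, a 7α-hydroxylase of 24-hydroxycholesterol, was at 5.26, 5.56 and 5.93 CPM with vehicle, 7.35, 8.03 and 7.56 CPM with saringosterol and 6.38, 7.58 and 8.27 CPM with GW. Both sets of treated libraries lay above vehicle without passing the test, at 0.455 ± 0.13 (adjusted p = 0.070) and 0.41 ± 0.13 (adjusted p = 0.20). In the alternative fit with a replicate block, given at the end, the saringosterol difference of Cyp39a1 passed the threshold. Cyp46a1 and Cyp2r1 had differences of -0.53 ± 0.27 (adjusted p = 0.32) and -0.28 ± 0.13 (adjusted p = 0.29).

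With GW, 1 member passed the test in hepatocytes. Cyp2b10 (ENSMUSG00000030483, chromosome 7, 25897620 to 25926624) rose to 66.1, 74.1 and 67.8 CPM, above every vehicle library, by 0.31 ± 0.06 on the log2 scale (edgeR adjusted p = 0.0044). This is 1 of 62 members (1.61%), where 1.11% of all genes were called, 0.721% as higher and 0.385% as lower, so the share is near the background. The adjusted p was 0.057 without GW replicate 2, the highest of the 3. The log2 difference of Cyp1a2 was 0.03 ± 0.07, that of Cyp4a10 was -0.01 ± 0.18 and that of Cyp2e1 was 0.11 ± 0.06 (adjusted p = 0.62). The median over the 62 members was 0.03, with 37 above and 25 below zero.

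**Figure D3:**
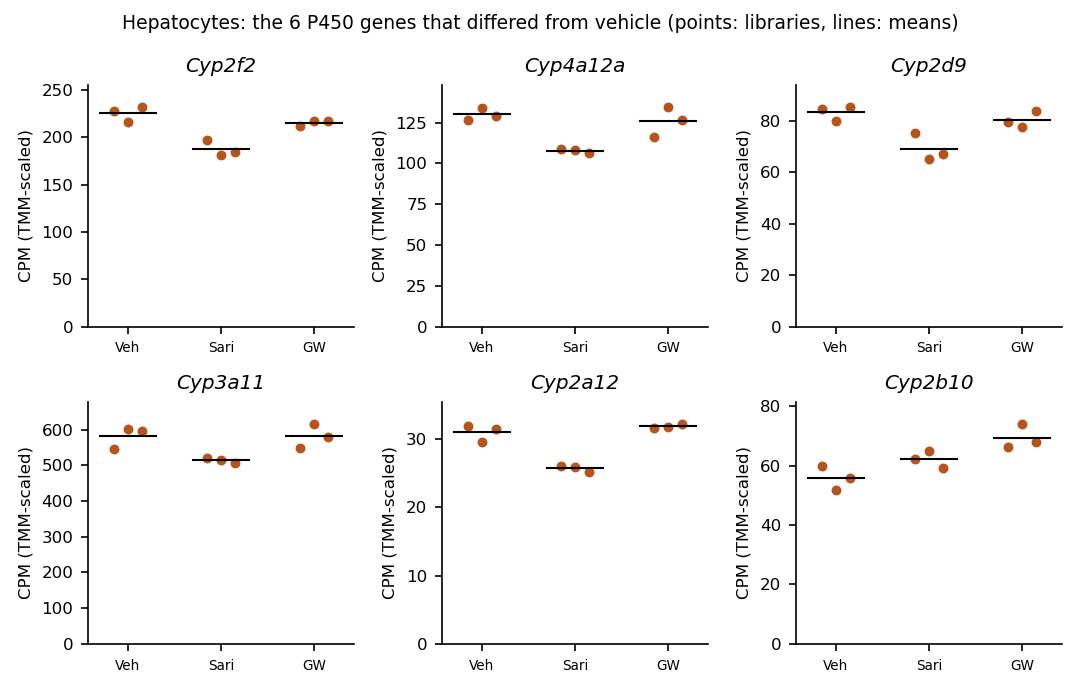
CPM (TMM-scaled, axis from 0) of the 6 P450 genes that differed from vehicle in hepatocytes, 1 point per library and a line at the mean of each group of 3. Saringosterol libraries lie below all vehicle libraries for Cyp2f2, Cyp4a12a, Cyp2d9, Cyp3a11 and Cyp2a12, and GW libraries lie above all vehicle libraries for Cyp2b10.

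Genes of the machinery around the enzymes were tested in hepatocytes too, where 1.91% of all genes were called with saringosterol and 1.11% with GW. Of 10 genes of electron supply and haem synthesis, all tested, saringosterol lowered 1, Cyb5b, an outer mitochondrial cytochrome b5, with a log2 change of -0.23 ± 0.045 (212 to 181 CPM, adjusted p = 0.0052), and none was called with GW. Of 18 receptors and regulators, 16 were tested: none was called with saringosterol and GW lowered Hnf4a, the master regulator of hepatocyte genes, with a log2 change of -0.41 ± 0.05 (297 to 223 CPM, adjusted p = 3.5e-06). Of 21 genes of other oxidation and conjugation, 20 were tested: none was called with saringosterol and GW raised the glutathione transferase Gstm1 by 0.19 ± 0.05 (342 to 391 CPM, adjusted p = 0.026). With so few calls over these 3 lists, nothing is read from their shares against the background. The summed hepatocyte markers were 14201 to 15036 CPM with saringosterol and 14221 to 14835 CPM with GW. With saringosterol, 8 periportal markers had a median log2 change of -0.23, with 7 of 8 below zero. Of the 8, only Hal (-0.31 ± 0.06, edgeR adjusted p = 0.0025) and Hsd17b13 (0.28 ± 0.06, adjusted p = 0.0063) were called, in opposite directions. Of 7 tested pericentral markers, 4 were below zero and none was called. The part of such shifts in the falls of P450 genes was not tested.

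Set directly against each other in hepatocytes, saringosterol at 10 µM and GW at 1 µM, doses that differ, gave 10 members with an adjusted p under 0.05, 9 lower and 1 higher with saringosterol. This is 16.1% of 62, where 1.96% of all genes were called, 1.25% as lower and 0.714% as higher. They were the 5 that fell against vehicle and Cyp2e1, Cyp4f14, Cyp21a1, Cyp2d22 and, higher, Cyp2c68. Cyp2c68 was at 25.7, 27.8 and 25.2 CPM with saringosterol and 19.6, 22.5 and 18.2 CPM with GW (0.39 ± 0.09, adjusted p = 0.014), around a vehicle level of 22.5 ± 2.24 CPM. Cyp2e1 was at 137, 136 and 131 against 159, 152 and 163 CPM (-0.23 ± 0.06, adjusted p = 0.024). No library of one compound overlapped the other for any of the 10. Those 10 were chosen by the test on the same libraries, so this adds no support. The number called fell to between 0 and 6 when a library was left out: 0 without GW replicate 3, 2 without saringosterol replicate 2 or 3, 4 without GW replicate 1, 5 without saringosterol replicate 1 and 6 without GW replicate 2.

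In microglia, GW changed several lowly expressed P450 genes severalfold, while none passed the threshold with saringosterol. With GW, 3 of 17 tested members rose and 4 fell, 41.2% in all, where 28.7% of 16065 genes were called (13.4% higher, 15.2% lower). Because 78 members did not pass the filter on low counts, these 17 are the expressed few. With saringosterol 0 of the 17 were called, where 10.8% of all genes were. For so few members neither count is far from the background, and nothing is read from the difference between the counts.

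Cyp2s1 (ENSMUSG00000040703, chromosome 7, 25802475 to 25816913), a P450 of epithelia and macrophages, had 9, 25 and 38 counts with vehicle, 20, 19 and 11 with saringosterol and 82, 73 and 66 with GW. All GW libraries stood above all others, and the rise was 1.74 ± 0.37 on the log2 scale (edgeR adjusted p = 0.00043). Gm26707, a noncoding gene whose exons overlap on the other strand, had at most 4 counts in these 9 libraries. Cyp20a1 rose from 28.7, 29.7 and 31.0 to 34.6, 37.5 and 34.3 CPM (0.25 ± 0.07, adjusted p = 0.0045), and Cyp4f13 from 38.1, 40.6 and 42.0 to 45.65, 43.8 and 46.0 CPM (0.17 ± 0.06, adjusted p = 0.032). The Cyp4f13 call was lost without the filter on low counts (adjusted p = 0.061), and without GW replicate 1 or 3 or vehicle replicate 1 or 2, with adjusted p from 0.068 to 0.16.

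Cyp1b1 (ENSMUSG00000024087, chromosome 17, 79701537 to 79715061), which oxidises oestradiol and polycyclic aromatics and is induced through the aryl hydrocarbon receptor, had 34, 73 and 48 counts with vehicle, 18, 42 and 23 with saringosterol and 16, 10 and 12 with GW. The vehicle and GW libraries did not overlap, and the log2 change was -1.88 ± 0.42 (adjusted p = 0.00066); with saringosterol it was -0.87 ± 0.38 (adjusted p = 0.16). In the same cells GW lowered the receptor gene Ahr, with a log2 change of -0.79 ± 0.08 (25.4 to 14.7 CPM, adjusted p = 2.4e-09) and its repressor and target Ahrr, at -0.78 ± 0.06 (47.9 to 27.9 CPM, adjusted p = 2.9e-11). With saringosterol their log2 changes were -0.295 ± 0.08 (adjusted p = 0.010) and -0.39 ± 0.06 (adjusted p = 2.9e-05). Arnt and Tiparp, genes of the same receptor pathway, were not called with GW, at -0.08 ± 0.05 (edgeR adjusted p = 0.28) and 0.02 ± 0.06 (adjusted p = 0.82). The part of this receptor in the fall of Cyp1b1 was not tested.

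Cyp4f39 (ENSMUSG00000061126, chromosome 17, 32452723 to 32493320) fell from 44, 52 and 51 counts to 9, 10 and 20 with GW, a log2 change of -1.77 ± 0.36 (adjusted p = 0.00023), and had 38, 42 and 39 counts with saringosterol. Cyp2a4 (ENSMUSG00000074254, chromosome 7, 26307169 to 26315088), a testosterone hydroxylase of liver and kidney, had 20, 33 and 22 counts with vehicle, 30, 31 and 12 with saringosterol and 4, 4 and 2 with GW, a fall of -2.72 ± 0.58 (adjusted p = 0.00038). Its near-copy Cyp2a5 had 0, 5 and 2 counts with vehicle and none with GW. Cyp2ab1, a P450 of unsettled function, had 20, 19 and 16 counts with vehicle and 3, 6 and 3 with GW (-2.01 ± 0.63, adjusted p = 0.014), a call that was lost without GW replicate 1 (adjusted p = 0.064) or 3 (adjusted p = 0.070). For all 7 genes the GW and vehicle libraries did not overlap, which adds no support, since the test chose them on these same libraries.

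With saringosterol, none of the 17 microglial members was called by edgeR, DESeq2 or limma-voom, where 10.8% of all genes were called (4.19% higher, 6.66% lower), and 4 members had an unadjusted p under 0.05. Leaving out saringosterol replicate 3 or vehicle replicate 1 gave 1 call. Against GW, 6 of 17 members differed (35.3%, where 25.5% of all genes were called, 12.5% higher and 12.9% lower), at doses of 10 and 1 µM. Cyp2s1 (-2.26 ± 0.38), Cyp4f13 (-0.32 ± 0.06) and Cyp4v3 (-0.13 ± 0.04) were lower with saringosterol, and Cyp2a4 (2.70 ± 0.58), Cyp4f39 (1.49 ± 0.36) and Cyp2d40 (1.54 ± 0.38) were higher, with adjusted p from 3.7e-05 to 0.022. The Cyp4v3 call was lost without the filter on low counts (adjusted p = 0.080) and without GW replicate 1 or 2 or saringosterol replicate 2 (adjusted p from 0.077 to 0.12). The 6 astrocyte markers, which mark cells that mixed glia also hold, summed to 38.5 to 40.3 CPM with vehicle, 25.8 to 30.1 with saringosterol and 45.0 to 50.2 with GW. The 6 markers of the oligodendrocyte lineage summed to 76.5 to 82.1, 67.1 to 72.1 and 87.1 to 88.8 CPM, and the 8 microglial markers to 829 to 859, 863 to 872 and 1012 to 1033 CPM. None of the 3 sums overlapped between vehicle and either compound. Of the astrocyte markers tested in microglia, only Aldh1l1 was called against vehicle. Its log2 change was -0.588 ± 0.075 with saringosterol (edgeR adjusted p = 1e-06) and 0.318 ± 0.072 with GW (adjusted p = 0.00095). Saringosterol also lowered Aldh1l1 in BMDM (-0.879 ± 0.129) and hepatocytes (-0.365 ± 0.056), where GW did not change it by the test. Whether the astrocyte sum tracks astrocytes was not tested. The part of these 3 marker lists in the changes of P450 genes was not tested either.

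**Figure D4:**
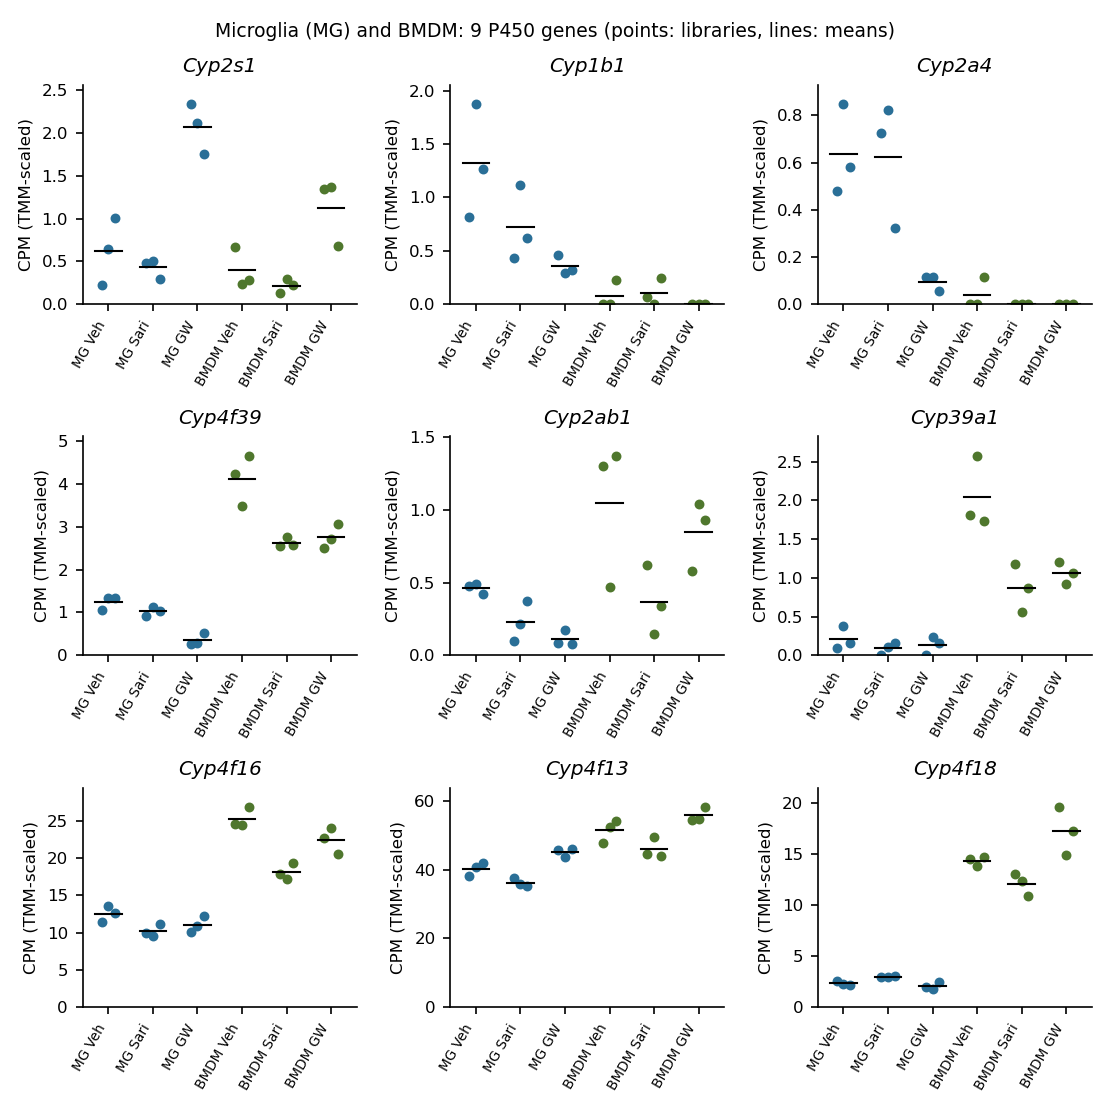
CPM (TMM-scaled, axis from 0) of 9 P450 genes in microglia (MG) and BMDM by treatment, 1 point per library and a line at the mean of each group of 3. GW libraries are highest for Cyp2s1 in both cell types, GW lowers Cyp1b1, Cyp2a4, Cyp4f39 and Cyp2ab1 in microglia, and all 3 saringosterol libraries lie below vehicle for Cyp39a1, Cyp4f16 and Cyp4f39 in BMDM.

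In BMDM, saringosterol lowered 3 of 15 tested members and GW raised 1. The first is 20% of the 15, where 10.7% of 15416 genes were called, 5.12% as lower and 5.53% as higher. The second is 6.67%, where 10.4% of genes were called, 5.66% as higher and 4.76% as lower, so neither count is far from the background for so few members. Saringosterol replicate 3 stood apart from its partners over all genes: the chi-square per degree of freedom between replicates was 37.43 and 36.03 with it and 7.37 without it, and at most 12.64 in any other group. Without it, 2 of the 15 were called for saringosterol, Cyp4f16 and Cyp39a1, and between the compounds 4 were called, as with it. Cyp4f16 (ENSMUSG00000048440, chromosome 17, 32536558 to 32551798), a fatty acid ω-hydroxylase gene, fell from 24.6, 24.4 and 26.8 CPM to 17.9, 17.2 and 19.3 CPM with saringosterol, a log2 change of -0.48 ± 0.09 (edgeR adjusted p = 0.0016). It was called in all 13 alternatives, and its near-copy Cyp4f37 was at 1.23 ± 0.313 CPM with vehicle and 0.805 ± 0.0952 CPM with saringosterol. In microglia and hepatocytes its log2 difference did not pass the test, at -0.30 ± 0.105 (adjusted p = 0.069) and -0.29 ± 0.10 (adjusted p = 0.12).

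Cyp39a1 (ENSMUSG00000023963, chromosome 17, 43667425 to 43751431) had 71, 88 and 62 counts in vehicle BMDM, 38, 23 and 36 with saringosterol and 46, 37 and 41 with GW. The saringosterol and vehicle libraries did not overlap, and the log2 change was -1.24 ± 0.31 (adjusted p = 0.012), or adjusted p = 0.068 without saringosterol replicate 2 and 0.088 without vehicle replicate 2. With GW it was -0.94 ± 0.30 (adjusted p = 0.050, not under the threshold). Cyp4f39 went from 4.22, 3.48 and 4.65 CPM to 2.54, 2.76 and 2.58 CPM with saringosterol (-0.65 ± 0.19, adjusted p = 0.030), a call lost without any 1 saringosterol library or without vehicle replicate 1 or 3 (adjusted p from 0.065 to 0.10). Without saringosterol replicate 2, only 1 of the 3 BMDM members, Cyp4f16, was called. Cyp2s1 had 26, 8 and 10 counts in vehicle BMDM, 4, 12 and 9 with saringosterol and 51, 55 and 26 with GW, so that the lowest GW library matched the highest vehicle library in counts and exceeded it narrowly in CPM (0.672 against 0.664). Its rise with GW was 1.497 ± 0.47 (adjusted p = 0.044) and was lost without GW replicate 1 or 2 or vehicle replicate 2 or 3, with adjusted p from 0.13 to 0.18.

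Between the compounds, again at 10 and 1 µM, 4 of 15 BMDM members were lower with saringosterol (26.7%, where 9.33% of genes were called, 4.75% as lower and 4.57% as higher): Cyp2s1 (-2.37 ± 0.50), Cyp4f18 (-0.51 ± 0.11), Cyp4f13 (-0.28 ± 0.07) and Cyp4f16 (-0.31 ± 0.09), with adjusted p from 0.0040 to 0.033. The Cyp4f16 call was lost without GW replicate 1 or 2 or saringosterol replicate 1 or 2, and that of Cyp4f13 without GW replicate 3 or saringosterol replicate 1. The 12 macrophage markers summed to 25134 to 26725 CPM in the saringosterol BMDM libraries and 31605 to 33436 CPM in the vehicle libraries. This fall was not shared by all of them. Lyz2, Csf1r, Itgam, Laptm5 and Tyrobp were called lower, with log2 changes from -0.605 to -0.19. None of the others was called, and Cd68, C1qb and C1qc were above zero, at 0.12, 0.28 and 0.09. The part of these markers in the falls of P450 genes was not tested.

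The partners of the P450 enzymes were also tested in microglia, where 28.7% of all genes were called with GW and 10.8% with saringosterol, and in BMDM, where these shares were 10.4% and 10.7%. The list counts that follow are to be read beside them. Of the 10 electron supply and haem genes, GW in microglia raised Hmox1 (0.59 ± 0.04, adjusted p = 5.3e-14), which degrades haem, Cyb5b (0.30 ± 0.04) and Por, the P450 reductase itself (0.18 ± 0.04, adjusted p = 0.00061), and lowered Alas1, the first step of haem synthesis (-0.26 ± 0.04, adjusted p = 7.5e-06). Saringosterol in microglia raised Hmox1 (0.34 ± 0.04, adjusted p = 4.5e-08) and lowered Cyb5b (-0.19 ± 0.04). In BMDM both compounds raised Por, saringosterol from 503 to 687 CPM (0.45 ± 0.07, adjusted p = 0.00026) and GW to 607 CPM (0.27 ± 0.07, adjusted p = 0.014), and both lowered Alas1 and Cyb5a, the microsomal cytochrome b5, with log2 changes from -0.41 to -0.245.

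Of the 21 genes of other oxidation and conjugation, Abcc3, an exporter of conjugates, rose with GW by 1.63 ± 0.05 in microglia (83.7 to 259 CPM) and 1.65 ± 0.10 in BMDM (104 to 326 CPM), and with saringosterol by 0.74 ± 0.05 and 0.91 ± 0.10. Nqo1, a quinone reductase under the aryl hydrocarbon receptor and Nrf2, fell in all 4 comparisons, at -1.36 ± 0.10 and -1.12 ± 0.16 with GW in microglia and BMDM and -0.30 ± 0.09 and -1.09 ± 0.16 with saringosterol. Ephx1, the microsomal epoxide hydrolase, rose in microglia with GW (0.77 ± 0.04) and saringosterol (0.28 ± 0.04). In all, GW in microglia raised 4 and lowered 2 of 12 tested genes of this list, where 28.7% of all genes were called, the others being Gstm1 (0.31 ± 0.045), Gsta3 (-0.70 ± 0.22) and Gstp1. Saringosterol raised 2 and lowered 2 in microglia (10.8% of all genes called), Fmo5 at -0.37 ± 0.12 being the fourth, and in BMDM it raised 1 and lowered 4 of 11 (10.7% of all genes called), with Sult1a1 (-0.81 ± 0.14), Gstp1 (-0.42 ± 0.08) and Fmo5 (-0.35 ± 0.10) beside Nqo1. These calls have edgeR adjusted p from 3.0e-22 to 0.045.

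Of the 18 receptors and regulators, 11 were tested in microglia, where GW raised 4 and lowered 4, beside 13.4% of all genes called higher and 15.2% lower. The 5 of smallest p were Ahrr and Ahr, given above, Tef (0.74 ± 0.06, adjusted p = 7.4e-11), Rxra, the common partner of LXR, PXR, CAR and PPARα (0.30 ± 0.045, adjusted p = 2.9e-06), and Dbp (0.99 ± 0.17, adjusted p = 3.5e-05); Tef and Dbp are clock output factors known to drive liver P450 genes. Saringosterol lowered 3 in microglia, Ahr and Ahrr, given above, and Nr3c1, the glucocorticoid receptor (-0.16 ± 0.045, adjusted p = 0.022). In BMDM saringosterol lowered 4 of 11, Dbp (-0.72 ± 0.11, adjusted p = 0.00040), Ahrr (-0.60 ± 0.10), Nr3c1 (-0.275 ± 0.055) and Tef (-0.28 ± 0.06), whereas GW raised Rara (0.51 ± 0.08) and Tef (0.31 ± 0.06) and lowered Vdr (-1.39 ± 0.39, adjusted p = 0.025).

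The difference in response between cell types was tested in the fit of all 27 libraries. For saringosterol, hepatocytes and BMDM differed in 3 of 69 members (4.35%, where 10.1% of genes were called, 3.13% higher and 6.98% lower in hepatocytes). Hepatocytes and microglia differed in none by edgeR (1.18% of genes, 0.274% higher and 0.906% lower), and microglia and BMDM in none (2.01%, 0.769% higher and 1.24% lower). Cyp39a1 is the well-counted one: its response was 1.65 ± 0.41 higher on the log2 scale in hepatocytes than in BMDM (adjusted p = 0.0084), and this was called in all 19 alternatives (adjusted p from 6.9e-05 to 0.033). The other 2 were Cyp2s1 and Cyp46a1, both with few counts. Cyp2s1 had 0, 1 and 2 counts in vehicle and 8, 3 and 7 in saringosterol hepatocytes, and Cyp46a1 had 0, 2 and 0 in vehicle and 6, 4 and 4 in saringosterol BMDM. The test was lost in 8 of 19 alternatives for Cyp2s1 and in 7 of 18 for Cyp46a1. For GW, hepatocytes and microglia differed in 1 member, Cyp2a4 (1.45%, where 8.69% of genes were called, 3.64% higher and 5.05% lower), with 46, 40 and 64 counts in vehicle and 46, 48 and 82 in GW hepatocytes beside the microglial fall given above. Hepatocytes and BMDM differed in none (4.74% of genes, 1.6% higher and 3.14% lower; 1 member by DESeq2 and 1 by limma-voom), and microglia and BMDM in 1, Cyp2d40 (9.71% of genes, 4.43% higher and 5.28% lower). Cyp2d40 had 33, 19 and 30 counts in vehicle and 13, 11 and 19 in GW microglia, and 30, 42 and 29 in vehicle and 52, 67 and 67 in GW BMDM. The hepatocyte falls could not be compared this way, because Cyp2f2, Cyp4a12a, Cyp2d9, Cyp2a12 and Cyp3a11 had at most 4 counts in any microglial or BMDM library.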

How the data were processed

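Poly(A) RNA of 27 libraries was sequenced after oligo-dT library preparation, per the labels' protocols. The authors used bcl2fastq, STAR 2.5.1a and featureCounts 1.4.6-p5 of Subread with GRCm38, per the submitters' processing notes; the setting for reads that fit several genes and for strand was not given in the sources used here. The deposited files give gene counts and TPM. Counts were used for all tests and the deposited TPM for levels between genes. The table had 55774 lines, of which 168 identifiers stood on several.

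Each cell type's 9 libraries were fitted with edgeR 4.0.16 (R 4.3.3; TMM, filterByExpr, robust quasi-likelihood F test) and contrasts between cell types in 1 fit of all 27. P-values were adjusted by Benjamini-Hochberg over all genes tested, and calls are genes with adjusted values below 0.05. SE is the size of the log2 change fitted without a prior count, divided by the square root of F. The printed log2 change includes the prior count of edgeR. For genes of few counts, the change and its SE thus rest on different estimates. Alternatives were limma-voom 3.58.1, DESeq2 1.42.0, other filters and scaling, a replicate block, near-identical members summed, and each library left out. No 2 replicates agreed within sampling noise: counts of replicate pairs gave a chi-square of 3.77 to 37.43 per degree of freedom. Depth sets a floor of 3 counts, or 0.073 to 0.099 CPM on plain library totals, which covers counting error only.

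Transcript identity came from blastn 2.17.0 on GENCODE M21, and promoters from the RefSeq table (GRCm38.p6; 74 of 95 members matched by symbol). Members, gene lists and tests were chosen with earlier results of these data known. Named genes are the called members of each comparison, the most abundant ones, 15 genes chosen for their known roles, up to 5 called partners per list and comparison, and members called in a test of response. Cyp4a12b, Cyp2a5 and Cyp4f37 were added as near-copies, and other members named among the vehicle comparisons were chosen after their values were seen.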

Additional observations from a re-analysis of the deposited data

Results flagged for a closer look

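In 5 cases a member's response to a compound differed between cell types by the test of that difference (edgeR, all 27 libraries). The saringosterol response of Cyp39a1 was 1.65 higher on the log2 scale in hepatocytes than in BMDM (SE 0.41, adjusted p = 0.0084): all 3 saringosterol hepatocyte libraries lay above vehicle and all 3 saringosterol BMDM libraries below it. The GW response of Cyp2a4 was 3.01 higher in hepatocytes than in microglia (SE 0.72, adjusted p = 0.0052), with hepatocyte counts of 46, 40 and 64 under vehicle and 46, 48 and 82 under GW.

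The GW response of Cyp2d40 differed by -1.56 between microglia and BMDM (SE 0.38, adjusted p = 0.0058); neither response passed the test within its own cell type (adjusted p = 0.14 and 0.098). Each of these 3 calls held in all 19 alternatives.

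The other 2 rest on counts near zero. The saringosterol response of Cyp2s1 differed by 3.35 between hepatocytes and BMDM (SE 1.08, adjusted p = 0.032), with 0, 1 and 2 counts in vehicle and 8, 3 and 7 in saringosterol hepatocytes, and the call was lost in 8 of 19 alternatives. That of Cyp46a1 differed by -3.14 (SE 1.04, adjusted p = 0.037), with 0, 2 and 0 counts in vehicle and 6, 4 and 4 in saringosterol BMDM, and was lost in 7 of 18. The fitted size of both depends on the prior count and is no bound.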

How the results depend on the processing

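Of 873 values of single genes under the alternatives, 770 kept their direction and their side of the threshold, 99 kept the direction but lost the call, 4 gained one and 0 reversed. The number of members called for GW against vehicle was 1 in hepatocytes and became 2 with no filter, with a CPM of at least 1 in 3 libraries, with DESeq2, with limma-voom and with the replicate block, and 0 to 2 with a library left out. In BMDM it was 1 and became 2 with no filter, with that CPM filter and with DESeq2, 0 with the replicate block, and 0 to 1 with a library left out. For saringosterol against vehicle the 5 hepatocyte calls became 2 to 4 with a library left out, the 3 BMDM calls 1 to 3 and the 0 microglial calls 0 to 1. The 10 hepatocyte calls between the compounds became 0 to 6. The GW response of hepatocytes against BMDM, 0 called, became 1 with no filter, with the CPM filter, with DESeq2, with limma-voom and with the replicate block, and 0 to 1 with a library left out. That against microglia went from 1 to 3 with DESeq2 and 1 to 2 with a library left out, that of microglia against BMDM from 1 to 2 with DESeq2 and 1 to 2, and the saringosterol response of hepatocytes against BMDM from 3 to 1 to 4. The cause was not tested. The labels do not say that replicate numbers pair the libraries, so the numbers were not taken as pairs. The correlation of same-numbered deviations was -0.025 to 0.111 in hepatocytes, -0.148 to 0.069 in microglia and -0.072 to 0.039 in BMDM. For differently numbered libraries it was -0.08 to 0.042, -0.072 to 0.116 and -0.132 to 0.109, in the same order. In hepatocytes 8 of 9 libraries were closest to their own number, a hint from the data and not the design, against 2 of 9 in microglia and 1 of 9 in BMDM. The replicate block gave 7 calls in place of 5 for saringosterol in hepatocytes, Cyp39a1 among them (adjusted p = 0.038), 6 in place of 7 for GW in microglia, and 2 in place of 3 for its response in hepatocytes against BMDM. With the block the adjusted p was 0.054 for Cyp4f13 with GW in microglia and 0.052 for Cyp2s1 with GW in BMDM. Summing members by protein identity was not run, since no protein table was used here; summing by transcript identity, chosen after seeing the data, replaced it. Leaving out a library leaves 2 in its group.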

Other observations

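Cyp2b10 had 1, 27 and 0 counts in the GW microglia libraries and 4, 2 and 1 in the vehicle ones, so that a single library held most of its microglial counts. Cyp2d40, a Cyp2d gene, was at 1.26, 0.904 and 1.34 CPM in saringosterol microglia and 0.792, 0.487 and 0.792 CPM in vehicle microglia, with no overlap, without passing the test (edgeR adjusted p = 0.20). Cyp2u1, a fatty acid hydroxylase, had log2 differences of 0.31 ± 0.11 with saringosterol and 0.39 ± 0.11 with GW in hepatocytes (SE; edgeR adjusted p = 0.15 and 0.092). These genes were chosen after their values were seen.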
